A study of Rattus norvegicus with 48 samples.

Results

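The miRNAs described here are rno-miR-326-3p, rno-miR-328a-3p and rno-miR-328b-3p, 3 of the 763 mature rat miRNAs listed for every library. They were chosen by their levels in these same libraries, because they were lower in the bones of placebo-treated ZDF rats or in the sera of insulin-treated ZDF rats. The values of those comparisons are therefore given as a description without a test, and tests are given only for comparisons between groups that played no part in the choice. Small RNA of 32 sera and 16 ulna bones was sequenced to ask how a rat model of type 2 diabetes and its treatment alter circulating and bone miRNAs. ZDF rats were homozygous for the leptin receptor mutation (fa/fa), and the WT controls were lean Zucker rats (+/+). All rats were male, began the study at the same age, carried a surgical defect of the femur and ate a diet rich in fat and carbohydrate, so the controls shared the defect and the diet. Treatment was given for 12 weeks and was placebo, PTH (parathyroid hormone), an antibody against sclerostin or, in ZDF rats only, insulin. Serum groups of both genotypes held 5 rats under placebo, 5 under PTH and 4 under anti-sclerostin, and 4 ZDF rats gave serum under insulin. Bone came from WT and ZDF rats under placebo or PTH (n = 4 in each of the 4 groups). The mutation is carried in every tissue of the rat, so bone and the rest of the body cannot be told apart as the site of an effect.

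A miRNA is cut from a hairpin precursor and guides the silencing complex to transcripts that pair with its seed, the bases 2 to 8 from its 5′ end. MiR-326 is known as a regulator of Notch and Hedgehog signalling, pathways that also act in osteoblast differentiation, and miR-328 is known for targeting the drug efflux pump ABCG2 and subunits of cardiac calcium channels. In the GRCr8 annotation of RefSeq, Mir326 lies inside Arrb1, which encodes a beta-arrestin that couples receptors to endocytosis, and Mir328 lies inside Elmo3, of a family of engulfment and cell motility adaptors, whereas Mir328b lies inside no annotated gene. The transcripts of these host genes were not measured.

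RefSeq (GRCr8) held the mature sequence of 686 of the 763 listed miRNAs and of 2 of the 3 members. They are shown with the seed in capitals, 5′ to 3′, next to rno-miR-330-5p, the only other of those 686 miRNAs with the seed of rno-miR-326-3p, and next to the other arm of the miR-326 hairpin:
rno-miR-326-3p: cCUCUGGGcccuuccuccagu
rno-miR-330-5p: uCUCUGGGccugugucuuaggc
rno-miR-326-5p: gGGGGCAGggccuuugugaa
rno-miR-328b-3p: cUGGCCCUcucugcccua
Among the listed miRNAs with a sequence, no other shared the seed of rno-miR-328b-3p. For rno-miR-328a-3p no sequence was held, so whether it shares that seed could not be read. The seeds of rno-miR-326-3p and rno-miR-328b-3p differ, and the longest run of bases that these 2 miRNAs have in common is the 6 bases GGCCCU. Both are rich in G and C, at 66.7% of their bases, and 529 of the 566 detected miRNAs with a sequence were lower (median 47.8%). The names rno-miR-328a and rno-miR-328b mark closely related hairpins, and reads that match both can be split between them by the counting.

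Each bone library held 41627 to 1398702 reads counted on miRNAs and each serum library 28015 to 205664, and 629 of the listed miRNAs had at least 1 read. Levels are given as TMM CPM, the counts of a miRNA scaled to the miRNA reads of the library (CPM) with TMM factors from all libraries of that tissue. Only the permutation tests and separation of bone against serum used factors from the libraries of both tissues together. In bone, 1 read was worth 0.959 to 22.7 TMM CPM, so that a few reads decide the level in the shallow libraries. Markers of osteoblasts and stroma, skeletal muscle, cartilage, endothelium, leukocytes and erythrocytes were present in every bone group, and the markers of osteoblasts and stroma summed to at least 13420 TMM CPM in each bone. As the bones were homogenised whole, fewer cells of a type and less of a miRNA per cell cannot be told apart.

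Both miR-326-3p and miR-328a-3p were lower in placebo-treated ZDF bone than in placebo-treated WT bone, which is how they were chosen. In WT placebo bones, rno-miR-326-3p had 4, 35, 58 and 52 reads, at 17.5, 85.2, 94.1 and 70.4 TMM CPM (mean 66.8 ± 34.3, SD, n = 4). In ZDF placebo bones it had 3, 25, 3 and 2 reads, at 15.0, 24.0, 19.7 and 9.14 TMM CPM (mean 17.0 ± 6.38, SD, n = 4). The other 3 WT bones lay above all 4 ZDF bones, but the WT bone with 17.5 TMM CPM lay inside the ZDF range, so the groups overlapped. The fitted log2 fold change of rno-miR-326-3p was -1.91 ± 0.56 (SE), the place 4 from the lowest among the 231 miRNAs kept, whose median was -0.06.

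For rno-miR-328a-3p, the WT placebo bones had 7, 116, 264 and 209 reads, at 30.7, 283, 428 and 283 TMM CPM (mean 256 ± 165, SD, n = 4). The ZDF placebo bones had 2, 148, 3 and 2 reads, at 9.99, 142, 19.7 and 9.14 TMM CPM (mean 45.2 ± 64.7, SD, n = 4). Among the ZDF bones, 3 were below every WT bone, and the remaining bone, with 148 of the 155 reads, exceeded the lowest WT bone. The fitted log2 fold change was -2.28 ± 0.69 (SE), the place 2 from the lowest, and without that ZDF bone it was -4.36.

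Depth moved with these levels. The 3 WT bones with the higher levels held 389490 to 952131 miRNA reads and the remaining WT bone 195045, whereas the ZDF bones held 192505, 1398702, 116097 and 209490. Over all 16 bones, Spearman's rho between TMM CPM and miRNA reads was 0.56 for rno-miR-326-3p, with 0.45 for rno-miR-328a-3p, as a description of bones that differ in group as well as in depth. Among the ZDF placebo bones, the library with the most reads also had the highest level of both miRNAs. The part of depth in the difference was not tested.

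**Figure D1:**
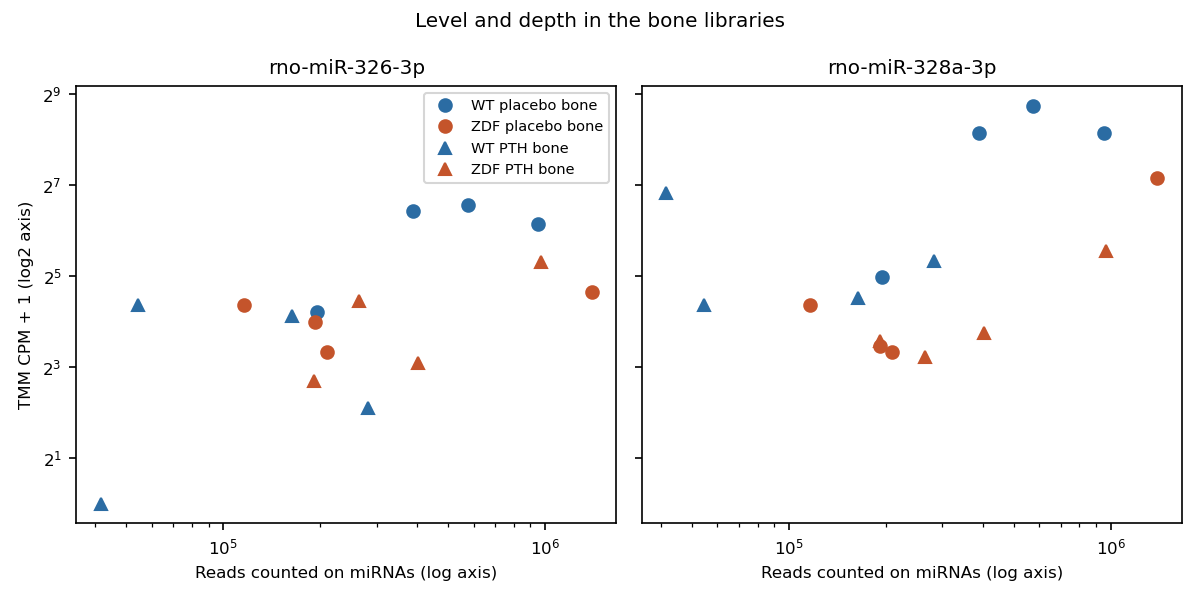
Level of rno-miR-326-3p (left) and rno-miR-328a-3p (right) in the 16 bone libraries, as TMM CPM + 1 on a log2 axis, against the reads counted on miRNAs on a log axis. Circles are placebo and triangles PTH, blue is WT and orange ZDF. The 3 WT placebo bones with 389490 to 952131 reads stand above all other bones in rno-miR-326-3p and rno-miR-328a-3p.

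Base composition and some of the tissue markers also moved with the placebo comparison of bone. Across 248 miRNAs with a sequence and a mean of at least 20 CPM, Spearman's rho between G and C content and the ZDF to WT log2 fold change was -0.34, and the median log2 fold change was -0.46 for the 42 miRNAs above 55% and 0.15 for the 99 below 45%. The summed markers of osteoblasts and stroma (miR-199a-3p, miR-199a-5p, miR-214-3p and miR-218a-5p, none of them at 0) were 23722 to 45883 TMM CPM in WT placebo bones and 14753 to 18759 in ZDF placebo bones, without overlap. The paper reports miR-199a-3p as lower in ZDF bone in this same comparison, and the lists were chosen with earlier results of these data known. The 4 leukocyte markers summed to 5833 to 8289 in WT and 4125 to 5210 in ZDF placebo bones, also without overlap. The 4 skeletal muscle markers (53567 to 424538 in WT, 77020 to 456591 in ZDF) and the 4 cartilage markers (16123 to 44866 in WT, 9083 to 24392 in ZDF) overlapped. So did the 4 erythrocyte markers (9876 to 12572 in WT, 8287 to 11290 in ZDF). The 2 endothelium markers (18109 to 22773 in WT, 22323 to 42953 in ZDF) overlapped with the higher median in ZDF. The part of these in the levels of the members was not tested.

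Bones of PTH-treated rats played no part in the choice and allow the comparison of ZDF with WT to be tested in other libraries. In WT PTH bones, rno-miR-326-3p had 1, 0, 3 and 1 reads, at 19.6, 0, 16.5 and 3.28 TMM CPM (mean 9.84 ± 9.64, SD, n = 4). In ZDF PTH bones it had 3, 5, 1 and 34 reads, at 7.47, 20.9, 5.47 and 39.0 TMM CPM (mean 18.2 ± 15.4, SD, n = 4). The mean of rno-miR-326-3p was thus higher in ZDF than in WT bones under PTH, with overlapping groups. Its fitted log2 fold change was 1.09 ± 0.87 (SE), and its level was too low to be kept by the filter of edgeR's quasi-likelihood test, which without that filter gave FDR = 0.664. Without the ZDF bone that held 34 of the 43 reads the value was 0.26, without the WT bone at 3.28 TMM CPM 0.47, and without the WT bone at 16.5 it was 1.82. The exact permutation test of its log2 levels gave p = 0.371 (two-sided, 4 against 4 bones, for which 0.0286 is the smallest p).

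For rno-miR-328a-3p, the WT PTH bones had 1, 5, 4 and 12 reads, at 19.6, 114, 22.0 and 39.4 TMM CPM (mean 48.6 ± 44.2, SD, n = 4). The ZDF PTH bones had 5, 2, 2 and 40 reads, at 12.4, 8.35, 10.9 and 45.8 TMM CPM (mean 19.4 ± 17.7, SD, n = 4). Again 3 ZDF bones were below every WT bone, and the remaining one, with 40 of the 49 reads, was above 3 of the 4 WT bones. The log2 fold change was -0.99 ± 0.71 (SE) and did not pass the test (edgeR quasi-likelihood FDR = 0.518; exact permutation p = 0.171). Without that ZDF bone it was -1.96 and passed (FDR = 0.143), and with library totals in place of TMM it was 0.18, where the median of the kept miRNAs was 1.06 instead of 0.08. Of the 261 miRNAs kept in this comparison 14 were called at FDR < 0.2 (5.36%). Of the members only rno-miR-328a-3p was kept, and it was not called, while rno-miR-328b-3p had 0 reads in these bones. Neither rno-miR-326-3p nor rno-miR-328a-3p had an unadjusted p < 0.05 by edgeR. Whether the ZDF to WT difference under PTH differed from that under placebo was not tested.

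Within a library, the ratio of the reads of rno-miR-328a-3p to those of rno-miR-326-3p does not depend on the scaling. Its log2 value (0.5 added to each count) was 1.66 ± 0.64 (SD, n = 4) in WT placebo bones and 0.51 ± 1.37 in ZDF placebo bones. All 4 WT bones but only 1 of 4 ZDF bones were above 0. The remaining ZDF bones had only 2 or 3 reads of each miRNA, and the placebo values are descriptions. Under PTH it was 1.72 ± 1.79 (SD, n = 4) in WT and 0.12 ± 0.87 in ZDF bones. The difference under PTH of -1.60 did not pass the test (exact permutation p = 0.257, two-sided).

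**Figure D2:**
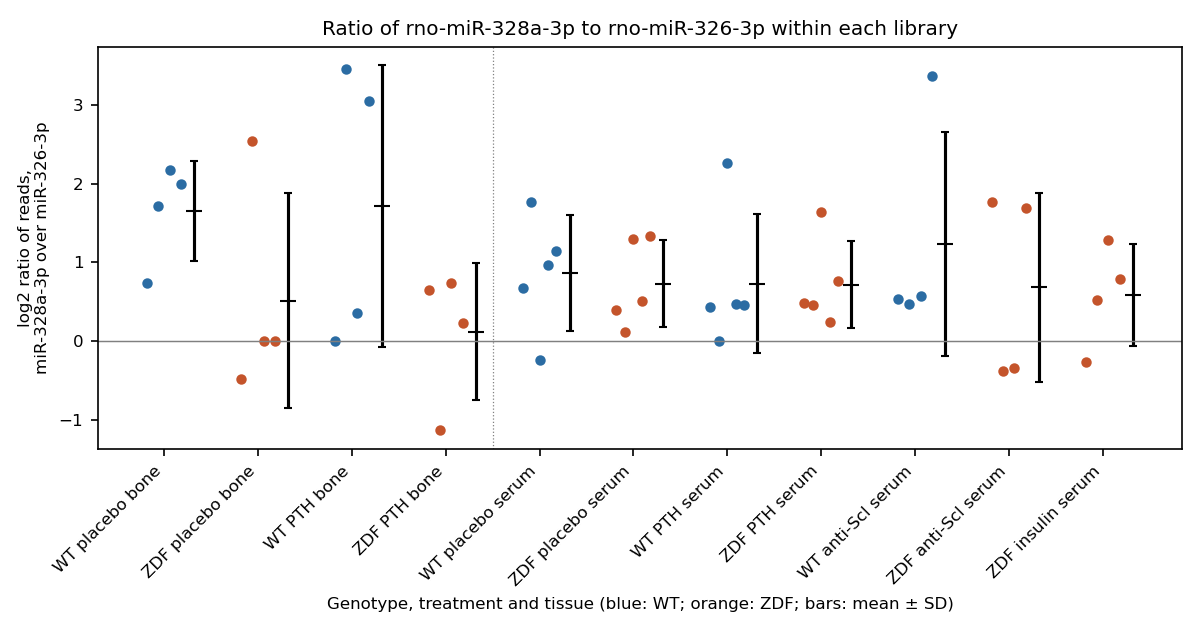
Log2 ratio of the reads of rno-miR-328a-3p to those of rno-miR-326-3p in each library (points; blue WT, orange ZDF), with the mean ± SD of each group beside them. In the placebo bones the WT mean is 1.66 and the ZDF mean 0.51, and all 7 serum means lie between 0.58 and 1.23.

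Mean levels in WT bones under PTH were also lower than under placebo, a comparison that shares the WT placebo bones with the choice. The groups overlapped in both miRNAs. For rno-miR-326-3p the highest PTH bone was at 19.6 TMM CPM and the lowest placebo bone at 17.5. For rno-miR-328a-3p these were at 114 and 30.7. The fitted log2 fold change of PTH against placebo in WT bone was -2.87 ± 0.80 (SE) for rno-miR-326-3p, with -2.59 ± 0.63 for rno-miR-328a-3p, at places 8 and 12 from the lowest of the 387 miRNAs kept, with a median of -0.09. All 4 WT PTH bones had at most 3 reads of rno-miR-326-3p. The miRNA reads of these libraries were 54497, 41627, 163549 and 282285, fewer than in 3 of the 4 WT placebo bones, and the part of this in the difference was not tested. Here too, G and C content moved with the change (rho = -0.35 across 244 miRNAs), in contrast to ZDF against WT bone under PTH (rho = 0.001 across 239 miRNAs). In ZDF bone, PTH against placebo was 0.12 ± 0.67 (SE) for rno-miR-326-3p, with -1.22 ± 0.72 for rno-miR-328a-3p, and the latter was 0.65 without the ZDF placebo bone that held 148 reads.

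**Figure D3:**
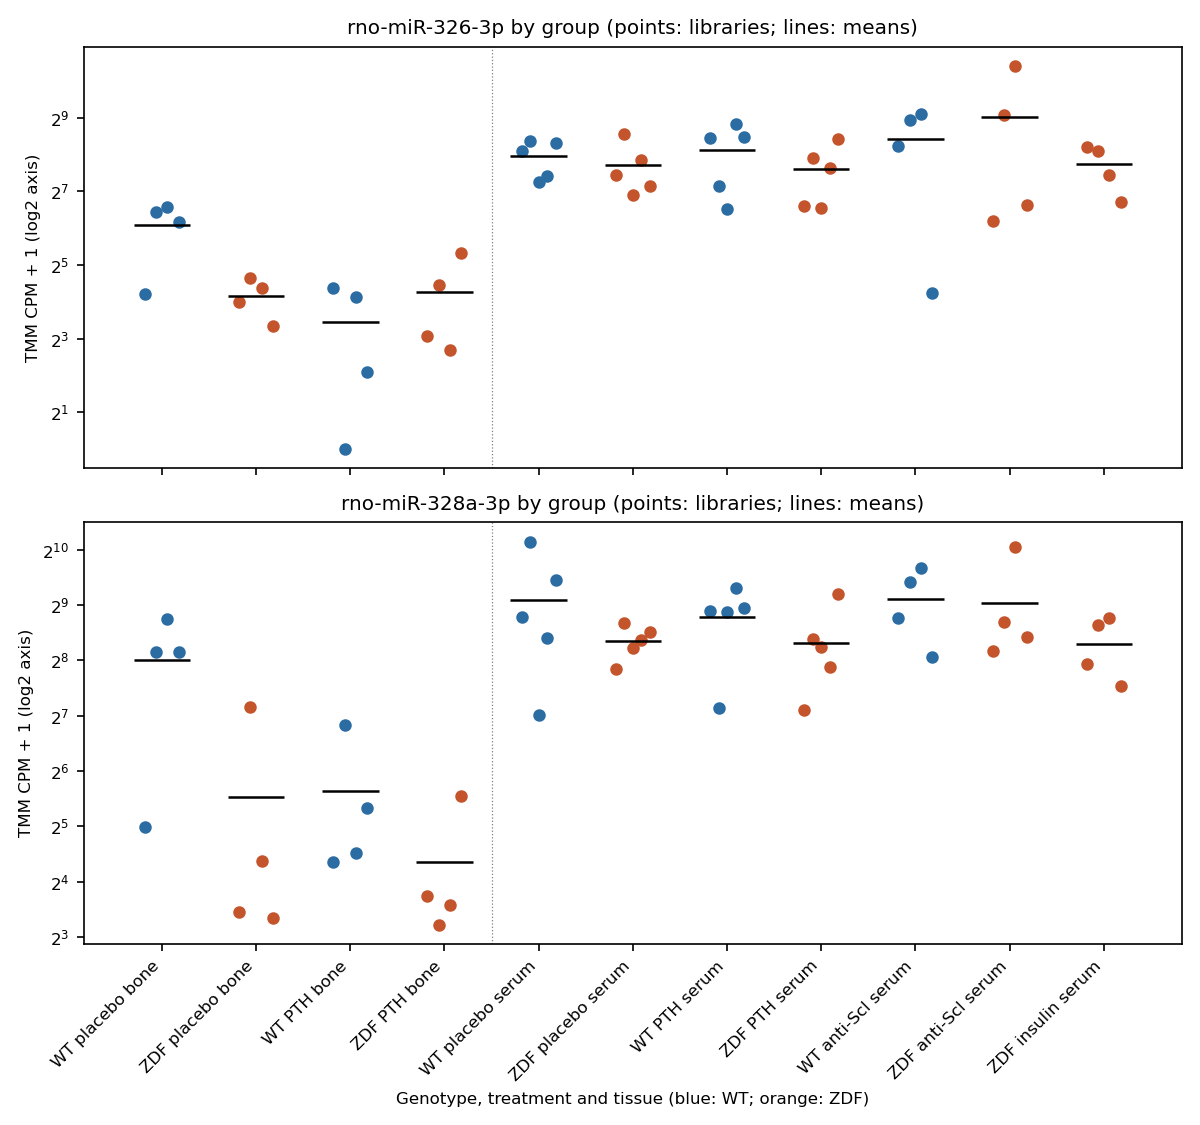
Levels of rno-miR-326-3p (top) and rno-miR-328a-3p (bottom) in the 11 groups as TMM CPM + 1 on a log2 axis, with scaling made within each tissue. Points are libraries (blue WT, orange ZDF) and lines are group means. All serum group means are above 190 TMM CPM in rno-miR-326-3p and all bone group means below 67, and in rno-miR-328a-3p the mean of WT placebo bone, 256, is above the other bone means of 19.4 to 48.6.

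In serum, both miRNAs were present in all 32 libraries, at 17.7 to 1346 TMM CPM for rno-miR-326-3p (median 234) and 128 to 1133 for rno-miR-328a-3p (median 381). In placebo sera, rno-miR-326-3p was at 274, 327.9, 152, 169.6 and 314 TMM CPM in WT rats (mean 247 ± 81.9, SD, n = 5) and at 172, 376, 119, 229 and 139.6 in ZDF rats (mean 207 ± 103, SD, n = 5). The 2 groups overlapped almost in full, and the fitted log2 fold change of ZDF against WT was -0.36 ± 0.47 (SE), between -0.77 and -0.10 with 1 serum left out. In the same sera, rno-miR-328a-3p was at 440.0, 1133, 128, 339 and 698 TMM CPM in WT rats (mean 548 ± 386, SD, n = 5) and at 229.5, 408, 297, 329.6 and 366 in ZDF rats (mean 326 ± 68.04, SD, n = 5). Here the WT sera held both the highest and the lowest value, and the fitted log2 fold change was -0.87 ± 0.43 (SE), or -0.27 without the WT serum at 1133 TMM CPM. These are descriptions, since the ZDF placebo sera were used in the choice.

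In insulin-treated ZDF sera, rno-miR-326-3p was at 296, 273, 173 and 103 TMM CPM (mean 211 ± 89.7, SD, n = 4) and its log2 fold change against placebo ZDF sera was 0.00075 ± 0.50 (SE). There rno-miR-328a-3p was at 244, 395, 432 and 185 TMM CPM (mean 314 ± 118, SD, n = 4), a log2 fold change of -0.10 ± 0.42 (SE). The insulin-treated and placebo sera overlapped in both miRNAs. For rno-miR-328b-3p there were 1, 4, 1, 1 and 2 reads in the 5 placebo ZDF sera and 0 reads in all 4 insulin-treated sera. These values are descriptions, since this comparison was used in the choice.

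In total rno-miR-328b-3p had 30 reads, in 16 of the 32 sera and with at most 4 in a library, and 0 reads in the 16 bones. WT sera had 1, 2, 0, 0 and 0 reads under placebo, 0, 2, 0, 1 and 0 under PTH and 2, 2, 4 and 0 under anti-sclerostin. ZDF sera had 0, 0, 0, 1 and 2 reads under PTH and 0, 2, 2 and 0 under anti-sclerostin. No group other than the placebo ZDF sera had reads in every library. Of the reads on rno-miR-328a-3p and rno-miR-328b-3p together, rno-miR-328b-3p took 2.15% in serum (30 of 1394, 95% Clopper-Pearson interval 1.46 to 3.06%). In bone it took 0 of 822 (upper end of the same kind of interval 0.448%). Placebo ZDF sera had a share of 6.29% (9 of 143) and insulin-treated sera 0 of 87. Both of these groups were used in the choice, so their shares are descriptions. The intervals pool the reads of libraries and cover counting error only. The 4 erythrocyte markers summed to 233362 to 381326 TMM CPM in insulin-treated sera and to 87066 to 159349 in placebo ZDF sera, without overlap, and the part of this in the reads of rno-miR-328b-3p was not tested.

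**Figure D4:**
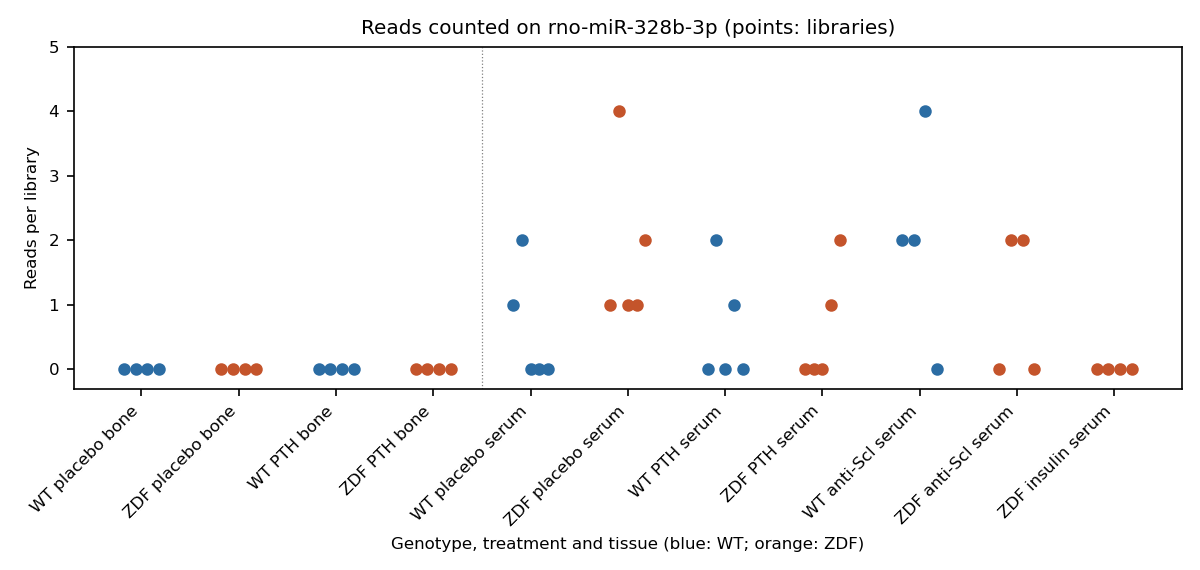
Reads counted on rno-miR-328b-3p in each of the 48 libraries (points; blue WT, orange ZDF) by group. All 16 bones and all 4 insulin-treated sera are at 0, all 5 placebo ZDF sera are at 1 to 4, and the other serum groups include libraries at 0.

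Serum groups outside the choice were compared by test. Under PTH, rno-miR-326-3p was at 347, 141, 90.2, 454 and 356 TMM CPM in WT sera (mean 278 ± 155, SD, n = 5) and at 95.5, 239, 93.1, 197 and 344 in ZDF sera (mean 194 ± 105, SD, n = 5). The sera of both genotypes covered much the same range. In these sera rno-miR-328a-3p was at 473, 141, 469, 634 and 492 TMM CPM in WT rats (mean 442 ± 181, SD, n = 5) and at 136, 332, 303, 234 and 589.6 in ZDF rats (mean 319 ± 169, SD, n = 5). The log2 fold change of ZDF against WT was -0.53 ± 0.57 (SE) for rno-miR-326-3p, with -0.47 ± 0.54 for rno-miR-328a-3p. The filter kept only 43 abundant miRNAs, with neither member, and called 1 of them (2.33%), and without the filter the edgeR FDR values were 0.786 and 0.797. Exact permutation gave p = 0.437 for rno-miR-326-3p, with p = 0.381 for rno-miR-328a-3p, where 0.00794 is the smallest p for 5 against 5.

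Under anti-sclerostin, rno-miR-326-3p was at 298, 492, 549 and 17.7 TMM CPM in WT sera (mean 339 ± 239.9, SD, n = 4) and at 72.1, 534, 1346 and 97.9 in ZDF sera (mean 513 ± 595, SD, n = 4). The lowest WT value rested on 1 read and the lowest ZDF values on 2 and 4 reads, in libraries of 47357, 28015 and 33591 miRNA reads. In the same sera rno-miR-328a-3p was at 433, 683, 817 and 266 TMM CPM in WT rats (mean 549.8 ± 247, SD, n = 4) and at 288, 411, 1060.0 and 343 in ZDF rats (mean 525 ± 359.9, SD, n = 4). Both groups overlapped in both miRNAs. The log2 fold change of ZDF against WT was 0.60 ± 0.55 (SE) for rno-miR-326-3p (edgeR FDR = 0.854) and -0.10 ± 0.53 for rno-miR-328a-3p (FDR = 0.988), and 12 of 325 miRNAs were called (3.69%). Without the ZDF serum at 1346 TMM CPM the value for rno-miR-326-3p was -0.34. In the 4 ZDF sera under anti-sclerostin against the 5 under placebo, used in the choice, the log2 fold change was 1.42 ± 0.50 (SE) for rno-miR-326-3p, with 0.73 ± 0.49 for rno-miR-328a-3p, and without the serum at 1346 TMM CPM these were 0.48 and 0.17. For PTH against placebo in ZDF sera it was 0.01 ± 0.50 and 0.06 ± 0.46.

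In WT sera, PTH against placebo gave a log2 fold change of 0.09 ± 0.54 (SE) for rno-miR-326-3p, with -0.43 ± 0.50 for rno-miR-328a-3p (edgeR FDR = 0.995 for both), and 3 of 278 miRNAs were called (1.08%). Anti-sclerostin against placebo gave 0.41 ± 0.51 (SE, FDR = 0.845) and -0.04 ± 0.47 (FDR = 0.957), with 17 of 305 miRNAs called (5.57%). For rno-miR-326-3p under anti-sclerostin the difference of mean log2 levels had the opposite sign, -0.26 (exact permutation p = 0.857). Both comparisons share the 5 WT placebo sera. For rno-miR-328b-3p, which had 8 reads in 4 anti-sclerostin sera and 3 reads in 5 placebo sera of WT rats, edgeR gave FDR = 0.513, and no fold change is given. In the comparisons of sera, no member that the filter kept was called, and the filter did not keep every member in each. Of the 3 members, 0 had an unadjusted p < 0.05 by edgeR or exact permutation. With 4 or 5 sera per group and SE values near 0.5, changes below 1 on the log2 scale could not be told from none. Larger changes could be missed as well. The pooled SD of the log2 levels of rno-miR-326-3p was 2.15 in ZDF and WT sera under anti-sclerostin.

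**Figure D5:**
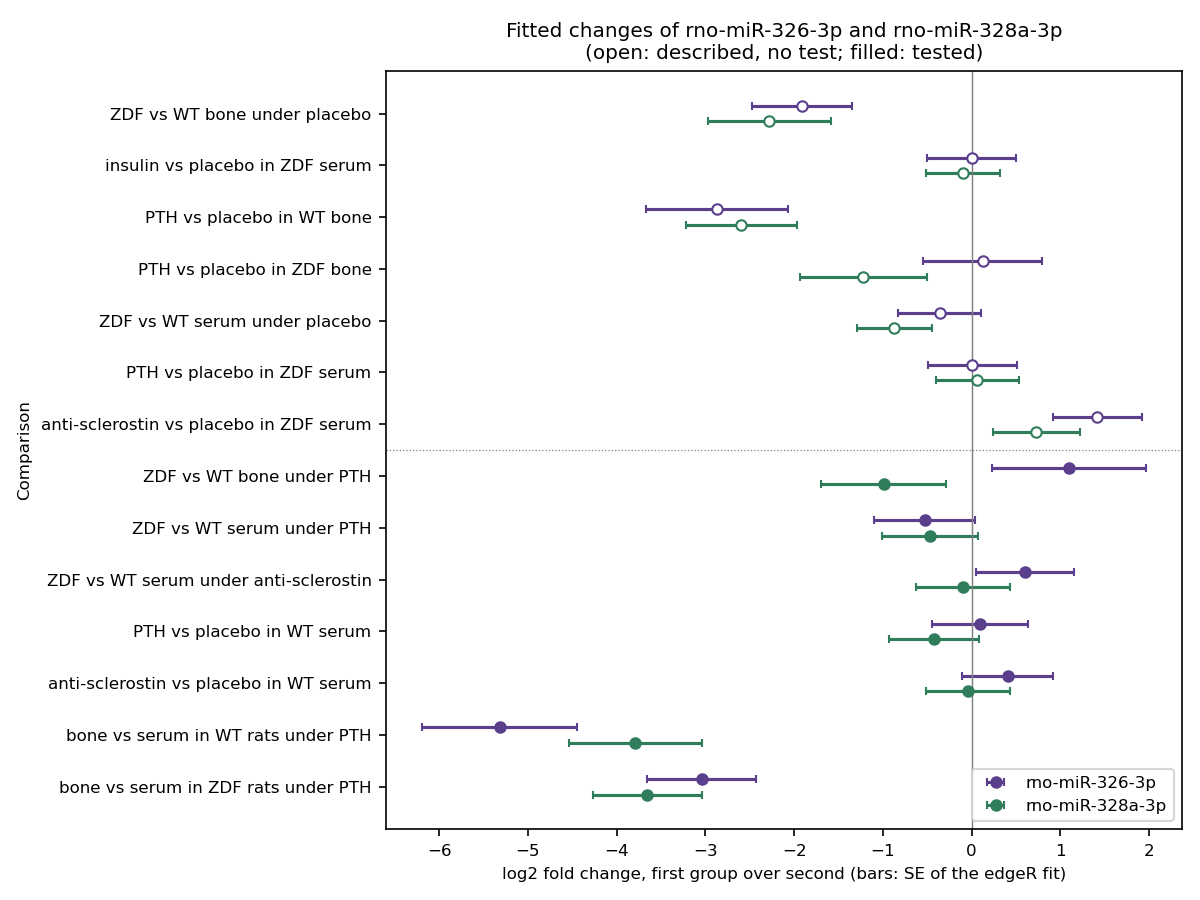
Log2 fold change of rno-miR-326-3p (purple) and rno-miR-328a-3p (green) in 14 comparisons, first group over second, with the SE derived from the edgeR test as bars. Open points are comparisons that share libraries with the choice of the members and carry no test, and filled points were tested. In bone against serum both miRNAs lie at -3.04 to -5.32, and in the other 5 tested comparisons between -0.99 and 1.09.

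Bone and serum of PTH-treated rats, also outside the choice, differed in both miRNAs. Under PTH, rno-miR-326-3p was lower in bone than in serum in WT rats by a log2 fold change of -5.32 ± 0.87 (SE, edgeR FDR = 2.0e-08) and in ZDF rats by -3.04 ± 0.62 (SE, FDR = 5.0e-06). For rno-miR-328a-3p the values were -3.79 ± 0.75 (SE, FDR = 4.5e-06) in WT rats and -3.66 ± 0.62 (SE, FDR = 2.7e-08) in ZDF rats. With TMM factors from the libraries of both tissues together, the highest bone was below the lowest serum in all 4 of these comparisons. For rno-miR-328a-3p in WT rats they nearly met, at 129.05 TMM CPM in a bone with 5 reads and 129.28 in a serum. Exact permutation of these levels gave p = 0.0159 in each, the smallest p that this two-sided test can give for 4 against 5. In WT rats, the p for rno-miR-328a-3p rests on that narrow gap. Lower in bone at FDR < 0.2 were 168 of 519 miRNAs in WT rats (32.4%) and 150 of 500 in ZDF rats (30.0%), so that such a call was common. The bones came from rats that also gave serum, with exceptions among the PTH-treated ZDF rats, and the labels do not link them, so the tissues were treated as independent. Reads counted on miRNAs took 1.58 to 21.5% of the reads of a bone library and 0.529 to 4.09% of a serum library, and the result depended on what a level is set against. With library totals in place of TMM, the median of the kept miRNAs rose to 1.97 in WT and 2.67 in ZDF rats, from -0.05 and 0.59, and 61 of 332 and 35 of 380 calls were then lower in bone, instead of 168 of 308 and 150 of 354. The log2 fold changes were then -3.46 and -2.11 in WT rats (edgeR FDR = 0.0102 and 0.0681) and -0.84 and -1.42 in ZDF rats (FDR = 0.32 and 0.0813), for rno-miR-326-3p and rno-miR-328a-3p in this order.

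For rno-miR-328b-3p the same comparisons rested on 0 reads in 4 bones against 3 reads in 5 sera in each genotype. The edgeR FDR values of 0.0409 in WT and 0.0125 in ZDF rats passed the threshold, but the exact permutation test gave p = 0.556 in both. With so few reads no fold change is given.

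In the order of group medians, all 7 serum groups were above all 4 bone groups in both miRNAs, on levels scaled within each tissue. For rno-miR-326-3p the medians ran from 395 TMM CPM in WT anti-sclerostin sera to 172 in ZDF placebo sera, and then over 77.8 in WT placebo bones, 17.3 in ZDF placebo bones and 14.2 in ZDF PTH bones to 9.89 in WT PTH bones. Neighbouring groups in this order overlapped, except ZDF placebo sera and WT placebo bones. For rno-miR-328a-3p they ran from 558 in WT anti-sclerostin sera to 303 in ZDF PTH sera, followed by 283 in WT placebo bones, 30.7 in WT PTH bones, 14.9 in ZDF placebo bones and 11.7 in ZDF PTH bones, and all neighbours overlapped.

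The ratio of rno-miR-328a-3p to rno-miR-326-3p within a library did not pass exact permutation in any tested comparison, with 0.257 as the smallest p. The largest differences were -1.60 for ZDF against WT bone under PTH and 0.99 for bone against serum in WT rats (exact permutation p = 0.257 and 0.317), and the smallest was -0.01 for ZDF against WT sera under PTH (p = 0.992). In 27 of the 32 sera and 11 of the 16 bones the log2 ratio was above 0.

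Libraries outside the choice were used to ask whether the members vary together within groups, in 6 relations after subtraction of the group means. In 23 sera, rno-miR-326-3p and rno-miR-328a-3p had Pearson's r = 0.66 and Spearman's rho = 0.72 (permutation p = 0.00104 and 0.00018, Benjamini-Hochberg adjusted p = 0.00312 and 0.0009), and r = 0.64 without the 2 sera farthest from the median. The level of rno-miR-326-3p also followed the log2 number of miRNA reads in these sera, with r = 0.73 and rho = 0.70 (permutation p = 6.0e-05 and 0.0003, adjusted p = 0.00036 and 0.0009; r = 0.71 without the 2 farthest sera). For rno-miR-328a-3p this relation had r = 0.38 and rho = 0.47 (permutation p = 0.0737 and 0.0268, adjusted p = 0.147 and 0.0536; r = 0.41 without the 2 farthest sera). The part of depth in the relation between the miRNAs was not tested.

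In the 8 PTH bones, the miRNAs had r = -0.40 and rho = -0.62 (permutation p = 0.314 and 0.115, adjusted p = 0.377 and 0.172), which did not hold without the 2 farthest bones (r = 0.29). With the miRNA reads, r and rho were 0.41 and 0.43 for rno-miR-326-3p (permutation p = 0.304 and 0.299; adjusted p = 0.377 and 0.359) and 0.17 and 0.12 for rno-miR-328a-3p (permutation p = 0.657 and 0.793, adjusted p = 0.657 and 0.793). Without the 2 farthest bones, r was 0.52 and -0.48, so that none of the relations in bone was established.

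Across all 16 bones, the miRNAs whose levels were most like those of rno-miR-328a-3p, among 226 with at least 10 reads in at least 8 bones, were rno-miR-30c-5p (rho = 0.89), rno-miR-149-5p (rho = 0.88) and rno-miR-339-5p (rho = 0.85). After subtraction of group means, Pearson's r was 0.81, 0.80 and 0.74. These values are descriptions over bones that differ in genotype, treatment and depth. The value for rno-miR-326-3p was lower, at rho = 0.51 and r = 0.16 after subtraction. For rno-miR-326-3p, which had 0 reads in 1 bone, no miRNAs are named, because the rule for names asked for at least 1 read in every bone.

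The other arms of the hairpins and the seed partner of rno-miR-326-3p were scarce. The other arms, rno-miR-326-5p and rno-miR-328a-5p, had 2 and 1 reads in all bones and 0 and 3 reads in all sera, with at most 1 in a library. The seed partner rno-miR-330-5p had at most 12 reads in a bone and 3 in a serum. Its level was 8.73 ± 9.17 TMM CPM (SD, n = 4) in WT and 4.39 ± 6.47 in ZDF placebo bones, and 3.57 ± 5.19 in WT and 9.89 ± 7.38 in ZDF PTH bones. With ranges from 0 in 3 of these 4 groups, no order among them could be read.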

How the data were processed

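The authors used cutadapt for trimming (17 nt minimum) and Bowtie with miRDeep2 for mapping to genome and miRBase, and deposited counts of reads per mature miRNA and RPM per library total; another column was not used. Members, comparisons and lists were chosen with earlier results of these data known. Named besides the members are other arms, miRNAs with a shared seed and, for members read in every bone, the 3 with the highest Spearman's rho. Counts were tested in edgeR 4.0.16 (R 4.3.3; quasi-likelihood, legacy = TRUE, TMM, at least 1 read, 2 groups per fit), with independent filtering on mean CPM over 50 quantiles up to 0.95 and Benjamini-Hochberg FDR < 0.2. The SE of a log2 fold change is approximate, its absolute value divided by the square root of the F statistic of that test. Exact two-sided permutation used log2(TMM CPM + 1), with TMM factors from both tissues together for bone against serum, and correlations 100000 resamples where not exact. Group labels came from the deposited sample labels, which number no replicates. Alternatives were DESeq2 1.42.0, other scalings, filters, pseudocounts, fits and each library left out. Replicates differed by more than counting noise, and the test was tried on simulated data. The simulation used a fixed dispersion and changed only miRNAs above a minimum level, so it does not show how the test performs for scarce members.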

Additional observations from a re-analysis of the deposited data

Results flagged for a closer look

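In 4 of 28 sets of 4 or 5 libraries, the highest library stood apart from the others by Dixon's criterion at the 95% level. Chance does this in about 1 in 20 groups of normally distributed values. The values here were TMM CPM without a log, some from few reads, so that rate need not hold for them. For rno-miR-328a-3p these were a ZDF placebo bone at 142 TMM CPM (148 reads; next highest 19.7), a ZDF PTH bone at 45.8 (40 reads; next 12.4) and a ZDF anti-sclerostin serum at 1060.0 (111 reads; next 411). Both bones were the deepest of their group, with 1398702 and 971036 miRNA reads, and the part of depth was not tested. For rno-miR-328b-3p a WT placebo serum stood apart at 19.9 TMM CPM, which is 2 reads, against 4.89 in the next.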

How the results depend on the processing

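The lower level of rno-miR-326-3p and rno-miR-328a-3p in PTH bone than serum kept its direction under all alternatives and passed in all but 1, rno-miR-326-3p in ZDF rats with library totals (-0.84, edgeR FDR = 0.32). With library totals, ZDF against WT PTH bone gave 0.18 for rno-miR-328a-3p and PTH against placebo WT serum -0.17 for rno-miR-326-3p. ZDF against WT serum under anti-sclerostin gave positive values for rno-miR-328a-3p of 0.0491 (RLE), 0.199 (library totals), 0.0989 (miRNA totals), 0.0521 (DESeq2) and 0.0728 (filterByExpr). With a pseudocount of 10 the permuted difference for rno-miR-326-3p in PTH against placebo WT serum was 0.0039. Among the PTH bones, r turned to 0.29 (both miRNAs) and -0.48 (rno-miR-328a-3p with reads) without the 2 farthest bones, and the latter to -0.27 without subtraction of group means. FilterByExpr removed both miRNAs from ZDF against WT PTH bone and gave no value there. The causes were not tested.

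With 1 library left out, log2 fold changes ranged from 0.26 to 1.82 and from -1.96 to -0.39 (rno-miR-326-3p, rno-miR-328a-3p) in ZDF against WT PTH bone, from -0.34 to 0.98 and from -0.69 to 0.17 in ZDF against WT anti-sclerostin serum, from -0.18 to 0.39 and from -0.64 to 0.0602 in PTH against placebo WT serum, and from -0.299 to 0.42 for rno-miR-328a-3p in anti-sclerostin against placebo WT serum. The log2 ratio ranged from -0.24 to 0.38 in ZDF against WT PTH serum, from -0.91 to 0.16 in ZDF against WT anti-sclerostin serum, from -0.52 to 0.0906 in PTH against placebo and from -0.34 to 0.62 in anti-sclerostin against placebo WT serum.

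Counts of all miRNAs called depended more on the setting. ZDF against WT PTH bone had 14, but 30 (RLE), 34 (library totals), 25 (DESeq2), 7 (filterByExpr), 6 (FDR < 0.05) and 8 to 58 with 1 bone left out. ZDF against WT PTH serum had 1, but 2 (RLE), 0 with library totals, DESeq2, no filter, filterByExpr, all groups in one fit or FDR < 0.05, where 17, 5, 22, 5, 27 and 22 had an unadjusted p < 0.05, and 0 to 12 with 1 serum left out. ZDF against WT anti-sclerostin serum had 12, but 4 (library totals), 7 (no filter; legacy = FALSE), 6 (all groups in one fit; FDR < 0.05), 0 (filterByExpr; 11 at an unadjusted p < 0.05) and 5 to 21. PTH against placebo WT serum had 3, but 1 (miRNA totals, no filter, legacy = FALSE, robust = TRUE), 0 (library totals, DESeq2, filterByExpr, all groups in one fit, FDR < 0.05; 23, 8, 2, 17 and 19 at an unadjusted p < 0.05) and 0 to 10. Anti-sclerostin against placebo WT serum had 17, but 9 (library totals), 3 (DESeq2), 11 (no filter), 0 (filterByExpr; 18 at an unadjusted p < 0.05), 2 (all groups in one fit), 10 (FDR < 0.05) and 7 to 36. Bone against serum had 308 in WT and 354 in ZDF rats, but 147 and 155 with filterByExpr, which kept fewer miRNAs. No paired analysis was possible because the labels number no replicates. The low read numbers limit rno-miR-326-3p in PTH bones (0 to 5 reads in 7 of 8) and rno-miR-328b-3p everywhere.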

Other observations

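The miRNAs whose levels across bones were most like those of rno-miR-328a-3p differed from it between tissues. In bone against serum of PTH-treated rats, rno-miR-30c-5p was higher in bone, by a log2 fold change of 1.41 ± 0.59 (SE, edgeR FDR = 0.0426) in WT and 2.19 ± 0.50 (SE, FDR = 6.0e-05) in ZDF rats. Likewise rno-miR-149-5p was higher, by 2.39 ± 0.63 (SE, FDR = 0.00068) and 3.58 ± 0.58 (SE, FDR = 6.3e-09). Only rno-miR-339-5p was, as rno-miR-328a-3p, lower in bone, by -3.17 ± 0.67 (SE, FDR = 1.7e-05) and -3.14 ± 0.55 (SE, FDR = 1.0e-07). In ZDF against WT PTH bone none of these 3 passed the test, and rno-miR-339-5p was at -0.99 ± 0.54 (SE, FDR = 0.328). Other scalings were not run for these 3 miRNAs.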
